A study of Mus musculus with 8 samples.

Results

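Wild-type (WT) regulatory T cells (Treg) were compared with WT conventional CD4 T cells (Tconv) that had matured in the same kind of host. The comparison took the 2 arrays titled WT Treg and the 2 titled WT CD4 Tconv, 4 of the 8 arrays of the series, with every gene that carried a name and passed the detection filter. WT Treg and WT Tconv developed from B6.Thy1.1/Foxp3RFP marrow and were sorted as CD4+, Thy1.1+ and GFP-, the Treg as RFP+ and the Tconv as RFP-. The other 4 arrays held NIKtg Treg (CD4+, Thy1.1-, GFP+, RFP+) and NIKtg Tconv (the same gate with RFP-), from NIKtg/CD4Cre/foxp3RFP marrow. In those donors a transgene for the kinase NIK (Map3k14), placed at the ROSA26 locus, is joined with Cre driven from the CD4 promoter (B6.Cg-Tg(CD4-Cre)1Cwi/BfluJ). The NIKtg arrays served here to show where the WT difference is particular to WT cells. They also entered the normalization, the detection filter, the choice of probe and the spread behind every p-value.

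All 4 groups shared the C57BL/6 background, the red fluorescent reporter at the Foxp3 locus (B6.Foxp3tm1Flv/J) and growth in lethally irradiated B6.CD45.1 recipients that received both marrows. WT cells therefore shared their host with transgenic T cells, and no array held T cells of a host without them. Cells were sorted more than 8 weeks after reconstitution. The organ sorted, the age and sex of the mice and the number of mice per array are not given in the sources used here. Nothing says that the arrays of a group came from separate animals, so every p-value rests on the spread between arrays alone, which may be technical.

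Treg are CD4 T cells that restrain immune responses and depend on the transcription factor Foxp3. They make little IL-2 themselves and take it up through the high-affinity IL-2 receptor, which signals to STAT5. Through the receptor Ctla4 they take up CD80 and CD86 from antigen-presenting cells. Tconv in unimmunised mice are largely naive cells, which recirculate through lymph nodes, with a minority of memory and effector cells. A sorted population is a mixture, and on these arrays fewer cells of a type and less RNA per cell cannot be told apart.

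RNA was read on 1-colour Illumina bead arrays with 25697 probes. Between 10322 and 10760 probes were detected on the 4 WT arrays at a detection p under 0.01. Background-corrected, quantile-normalized log2 intensities are given throughout, WT Treg 1 and 2 before WT Tconv 1 and 2, and a difference is the WT Treg mean minus the WT Tconv mean on that scale. A gene counted as called where limma's test gave a Benjamini-Hochberg adjusted p under 0.05 over 7926 genes, with 2 arrays per group and 4 residual degrees of freedom. Across genes the WT Treg arrays correlated at r = 0.9942 and the WT Tconv arrays at r = 0.9904. Levels of different genes come from different probes and are not compared with each other.

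The sort was checked first. Foxp3 read 13.48 and 13.57 in WT Treg, against 8.05 and 8.82 in WT Tconv (difference 5.09, SE 0.33, adjusted p = 8.54e-05). Both Treg arrays lay far above both Tconv arrays. The gate used RFP made from the Foxp3 locus, so that separation checks the labels and is not a finding. All 8 Treg marker genes were detected on every WT array, and their summed linear intensity ran from 41656 to 42080 in WT Treg and from 3830 to 4942 in WT Tconv. The 6 CD4 T cell markers were detected on all 4 arrays too, at summed intensities of 49150.5 to 52380 in WT Treg and 43730 to 54367 in WT Tconv. Cd4 itself read 7.38 and 7.34 in WT Treg, against 8.77 and 8.19 in WT Tconv (difference -1.12, SE 0.22, adjusted p = 0.0106), and its call was lost without WT Treg 1 (adjusted p = 0.0549), WT Treg 2 (0.0601) or WT Tconv 1 (0.0549). Thy1, whose allele served the sort, read 13.81 and 14.12 in WT Treg, against 14.32 and 14.34 in WT Tconv, and the difference did not pass (-0.36, SE 0.14, adjusted p = 0.0956), though it did in 3 of 19 alternative fits (adjusted p down to 0.0168).

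WT Treg and WT Tconv differed in 1906 of 7926 genes, 24.0% of those tested. Of these, 882 were higher in WT Treg (11.1%) and 1024 lower (12.9%). At a difference of at least 2-fold, reached by 568 genes (7.17%), there were 356 genes higher (4.49%) and 212 lower (2.67%). At 4-fold or more, 89 genes were higher (1.12%) and 49 lower (0.618%), and 4 were higher and 5 lower at 16-fold or more. The median over all genes tested was -0.06. The arrays of the groups did not overlap for any of the 1906 called genes, nor for 66.3% of all genes tested. Leaving out WT Treg 1 gave 994 called genes, leaving out WT Treg 2 gave 999, and leaving out WT Tconv 1 gave 1031. The balance of all calls turned in those fits, to 530 higher and 464 lower, 519 and 480, and 559 and 472. It turned without WT Tconv 2 (761 and 746) and with median centring of the arrays (665 and 587) too, so neither direction held for all calls. The count at 2-fold or more lay between 512 and 619 when any 1 array was left out. In WT Tconv 157 of the higher genes were below detection on both arrays, and in WT Treg 104 of the lower ones. For these, a fold is given as "at least", against the lowest detectable signal.

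**Figure D1:**
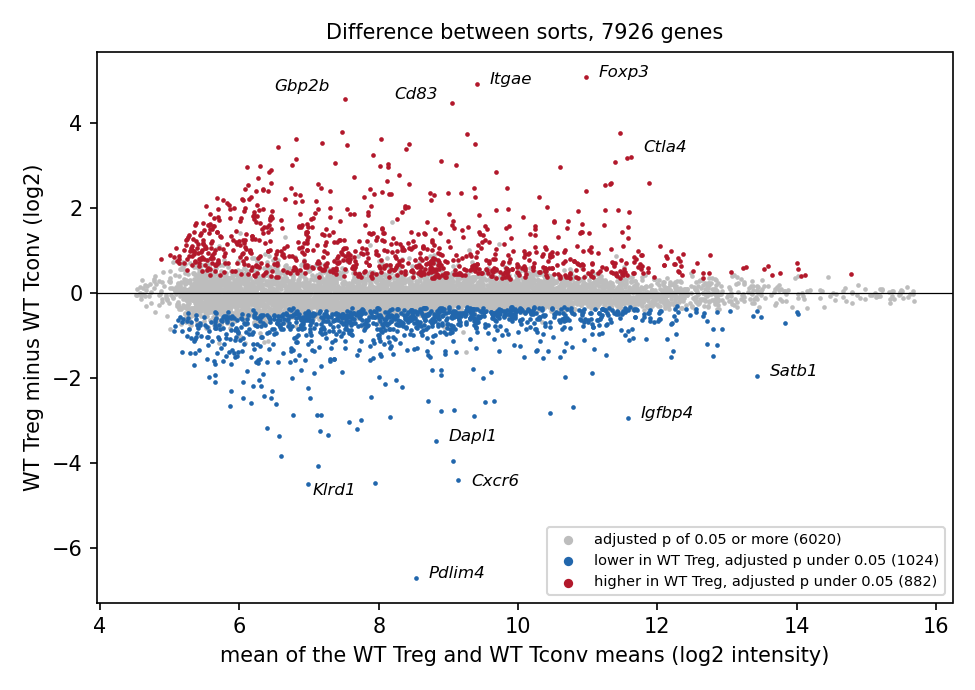
WT Treg minus WT Tconv (log2, vertical axis) against the mean of the 2 group means (log2 intensity, horizontal axis) for 7926 genes. Red points are the 882 genes called higher in WT Treg, blue points the 1024 called lower, and grey points the 6020 not called. Foxp3, Itgae and Gbp2b lie at the top and Pdlim4 at the bottom.

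After Foxp3, the largest increases among genes detected on all 4 WT arrays included surface and cytoskeletal genes. Itgae, the integrin chain CD103 that binds E-cadherin on epithelium, read 11.89 and 11.85 in WT Treg, against 6.55 and 7.36 in WT Tconv (difference 4.91, SE 0.23, adjusted p = 2.75e-05). The activation marker Cd83 read 11.32 and 11.27 in WT Treg, against 7.18 and 6.46 in WT Tconv (difference 4.47, SE 0.24, adjusted p = 4.15e-05). Dst encodes dystonin, a linker of cytoskeletal filaments, and read 9.21 and 9.35 in WT Treg, against 5.73 and 5.90 in WT Tconv (difference 3.47, SE 0.13, adjusted p = 1.92e-05). Swap70, a Rac-binding regulator of actin in lymphocytes, read 10.06 and 10.10 in WT Treg, against 6.66 and 6.75 in WT Tconv (difference 3.38, SE 0.11, adjusted p = 1.61e-05). In each of these the arrays of a group lay close together and the groups far apart. Tiam1, a Rac exchange factor, and Capg, an actin filament capping protein, were higher too, by 2.58 (SE 0.19, adjusted p = 0.000152) and 1.93 (SE 0.16, adjusted p = 0.000206). The called genes lower in WT Treg included the change with the highest bound in the data. Pdlim4, an actin-associated LIM protein, read 4.98 and 5.38 in WT Treg, against 11.88 and 11.88 in WT Tconv. It was below detection on both Treg arrays, at least 78.1-fold lower (adjusted p = 2.75e-05).

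The Swap70 promoter is shown because Swap70 had one of the lowest adjusted p-values and its window holds a forkhead word, the core that Foxp3 and other forkhead proteins recognise in vitro. The RefSeq window is chr7:110221453-110221752 on the plus strand of GRCm38.p6, from 250 bases before to 50 after the start. The capitals mark GTAAACA read on the opposite strand, at position -107 from the start.
Swap70: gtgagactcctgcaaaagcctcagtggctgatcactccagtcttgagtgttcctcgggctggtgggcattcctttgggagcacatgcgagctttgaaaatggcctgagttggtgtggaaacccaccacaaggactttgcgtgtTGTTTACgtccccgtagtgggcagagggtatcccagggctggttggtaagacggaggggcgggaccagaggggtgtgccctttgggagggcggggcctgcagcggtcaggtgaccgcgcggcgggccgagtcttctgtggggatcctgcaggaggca
The word GTAAACA, searched on both strands, occurred in 2.86% of the 280 promoters of genes at least 2-fold higher in WT Treg, in 2.92% of the 171 of genes at least 2-fold lower, and in 2.67% of the 6550 of all genes tested. The shares were thus close to each other, and the match is a description of letters, not a binding site.

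Several members of a near-identical gene family on chromosome 14 were among the largest increases. Gm5796 read 13.11 and 13.60 in WT Treg, against 9.50 and 9.66 in WT Tconv (difference 3.77, SE 0.18, adjusted p = 2.75e-05), Gm5797 differed by 3.50 and D830030K20Rik by 2.31. Their probes may each read transcripts of several members, so the family was higher but the member is uncertain.

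**Figure D2:**
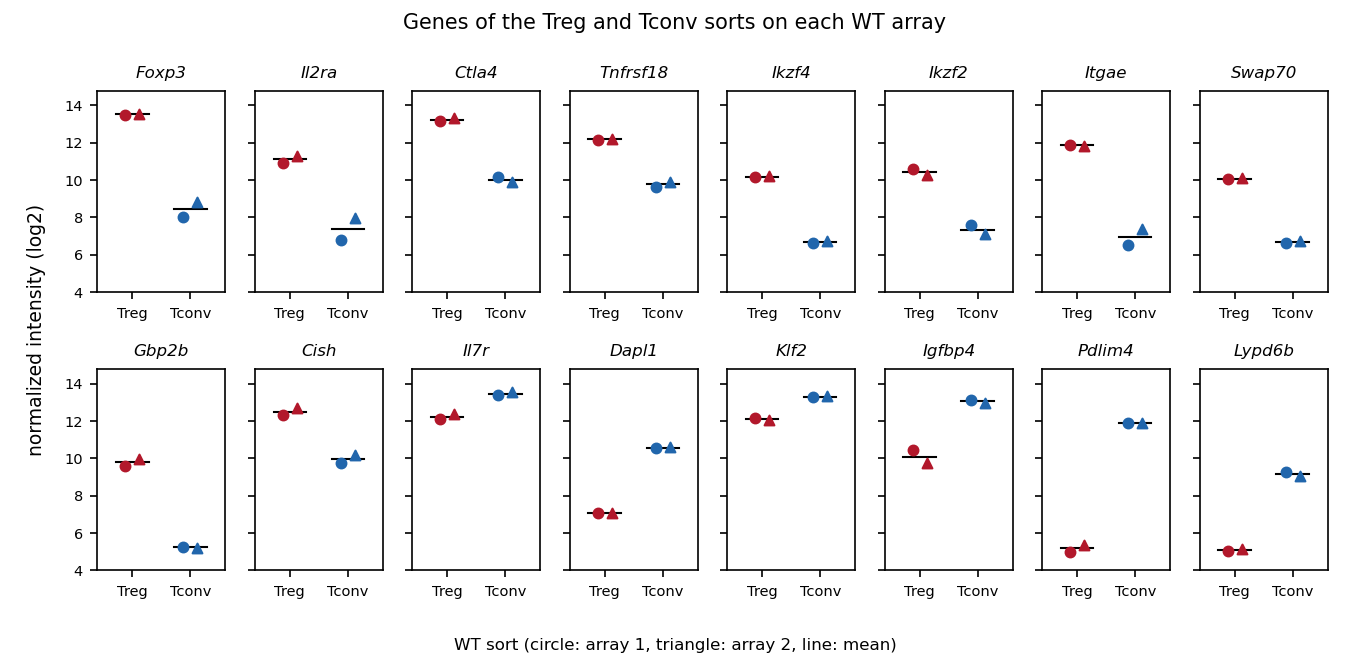
Normalized log2 intensity of 16 genes on each WT array, red for WT Treg and blue for WT Tconv, with circles for array 1, triangles for array 2 and a line at the group mean. The 10 genes from Foxp3 to Cish lie higher in WT Treg and the 6 from Il7r to Lypd6b lower, with no overlap between groups.

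Among 36 tested T cell transcription factors, 10 were higher and 7 lower in WT Treg, with a median of -0.13. Here and below, the WT counts of a list with quantile normalization stand against 11.1% higher and 12.9% lower over all genes tested. Those with median centring stand against 665 higher and 587 lower of 7926 genes. Ikaros family members went in both directions. Ikzf4 (Eos), a partner of Foxp3 in repression, read 10.16 and 10.23 in WT Treg, against 6.62 and 6.76 in WT Tconv (difference 3.51, SE 0.19, adjusted p = 4.82e-05). Ikzf2 (Helios), which marks most Treg of thymic origin, read 10.60 and 10.29 in WT Treg, against 7.58 and 7.10 in WT Tconv (difference 3.10, SE 0.18, adjusted p = 5.58e-05). Ikzf1 (Ikaros) itself went the other way, at 10.08 and 10.11 in WT Treg, against 11.31 and 11.25 in WT Tconv (difference -1.18, SE 0.12, adjusted p = 0.0005). All 3 changes were seen on both arrays of each group. Irf4, a factor that antigen receptor signals induce, read 9.50 and 9.56 in WT Treg, against 8.16 and 7.56 in WT Tconv (difference 1.67, SE 0.18, adjusted p = 0.000834), its AP-1 partner Batf 10.42 and 10.20 in WT Treg, against 8.84 and 8.78 in WT Tconv (difference 1.50, SE 0.17, adjusted p = 0.00103), and Irf8 differed by 1.42, SE 0.15, adjusted p = 0.000704. Nfil3, a basic leucine zipper factor, read 9.57 and 9.10 in WT Treg, against 7.38 and 6.62 in WT Tconv (difference 2.33, SE 0.26, adjusted p = 0.000834).

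Klf2, which keeps T cells quiescent and drives exit to the blood, read 12.17 and 12.06 in WT Treg, against 13.31 and 13.32 in WT Tconv (difference -1.20, SE 0.10, adjusted p = 0.000265). Lef1, a Wnt pathway factor of naive T cells, read 8.28 and 7.69 in WT Treg, against 9.90 and 9.72 in WT Tconv (difference -1.82, SE 0.26, adjusted p = 0.00262). Id2, an inhibitor of E proteins that is high in effector and innate-like lymphocytes, read 9.99 and 10.23 in WT Treg, against 11.60 and 12.41 in WT Tconv (difference -1.89, SE 0.29, adjusted p = 0.00327). Satb1, a chromatin organiser of T cell development, read 12.74 and 12.16 in WT Treg, against 14.41 and 14.42 in WT Tconv (difference -1.96, SE 0.40, adjusted p = 0.0115), a call lost without WT Treg 2 (adjusted p = 0.0761) or WT Tconv 1 (0.058), and with a trended, robust variance (0.0557). Prdm1 and Gata3, both linked to effector Treg, differed by 0.60 (adjusted p = 0.0909) and 0.59 (adjusted p = 0.0708) and were not called. Of 19 alternative fits, 8 called Gata3, at adjusted p-values down to 0.0144, and of 18 for Prdm1, 1 called it, without WT Tconv 2 (0.00931).

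The IL-2 receptor chains encoded by Il2ra and Il2rb were higher in WT Treg. Il2ra, the high-affinity alpha chain CD25, read 10.93 and 11.32 in WT Treg, against 6.80 and 7.99 in WT Tconv (difference 3.73, SE 0.36, adjusted p = 0.000417). The Tconv arrays were over 2-fold apart, and the difference was 4.33 without WT Tconv 2 and 3.13 without WT Tconv 1. Il2rb, the shared signalling chain, read 10.01 and 10.29 in WT Treg, against 8.59 and 8.93 in WT Tconv (difference 1.39, SE 0.16, adjusted p = 0.000984). Il7r, the receptor for the survival cytokine of resting T cells, was lower, at 12.11 and 12.36 in WT Treg, against 13.37 and 13.57 in WT Tconv (difference -1.24, SE 0.12, adjusted p = 0.000519). Of 25 tested interleukin, interferon and TGF-beta receptor chains, 9 were higher and 3 lower, with a median of 0.19. Besides Il7r, the lower ones were 2 TGF-beta receptor genes. Tgfbr3, the co-receptor betaglycan, read 7.56 and 7.30 in WT Treg, against 9.97 and 9.99 in WT Tconv (difference -2.55, SE 0.12, adjusted p = 2.75e-05). Tgfbr2 differed by -0.85, SE 0.10, adjusted p = 0.00118, but its other probe gave 0.14 (adjusted p = 0.745). Tgfbr1, the signalling chain, was higher by 1.40 (SE 0.20, adjusted p = 0.00226). Il10ra, the IL-10 receptor chain, read 10.23 and 10.50 in WT Treg, against 8.40 and 8.65 in WT Tconv (difference 1.84, SE 0.15, adjusted p = 0.000206).

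Of 21 tested STAT, JAK and SOCS genes, 5 were higher and none lower at this threshold, with a median of 0.17, a called share close to the 24.0% of all genes. All 5 are genes that cytokine signals are known to induce. The feedback inhibitor Cish read 12.34 and 12.68 in WT Treg, against 9.74 and 10.21 in WT Tconv (difference 2.53, SE 0.18, adjusted p = 0.000124). Its relative Socs2 read 11.90 and 12.16 in WT Treg, against 9.93 and 10.92 in WT Tconv (difference 1.61, SE 0.28, adjusted p = 0.0064), Socs5 was higher by 1.05 (SE 0.13, adjusted p = 0.00132), and the kinase Pim1 by 1.11 (SE 0.15, adjusted p = 0.00179). Socs1 was higher by 0.81 (SE 0.16, adjusted p = 0.0109) and lost its call without WT Treg 2 (adjusted p = 0.0754) or WT Tconv 2 (0.0533). The transducers themselves, Stat5a (0.41, adjusted p = 0.0893) and Jak3 (0.41, adjusted p = 0.163), did not pass, though 4 of 19 alternative fits called Stat5a (adjusted p down to 0.0182).

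The promoters of Cish and of Tnfrsf18, a Treg receptor described next, are shown because both genes were called higher and both windows hold the STAT word TTCNNNGAA. They are chr9:107296409-107296708 and chr4:156026072-156026371, both on the plus strand of GRCm38.p6 in RefSeq, with the start at base 251. The capitals mark the STAT words. In Cish they begin at the start itself and 11 bases after it, and in Tnfrsf18 at position -99.
Cish: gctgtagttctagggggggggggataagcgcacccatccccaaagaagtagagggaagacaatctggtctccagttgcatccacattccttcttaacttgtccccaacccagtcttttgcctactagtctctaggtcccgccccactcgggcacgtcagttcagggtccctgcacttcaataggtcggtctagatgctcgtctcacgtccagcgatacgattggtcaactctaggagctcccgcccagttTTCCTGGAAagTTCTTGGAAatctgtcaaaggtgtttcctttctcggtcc
Tnfrsf18: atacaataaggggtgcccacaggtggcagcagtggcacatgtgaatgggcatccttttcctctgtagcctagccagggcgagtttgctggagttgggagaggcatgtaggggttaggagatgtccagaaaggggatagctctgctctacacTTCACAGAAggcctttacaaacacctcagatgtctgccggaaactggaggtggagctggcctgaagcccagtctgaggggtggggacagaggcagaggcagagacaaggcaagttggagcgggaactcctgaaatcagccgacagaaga
The word, which reads alike on both strands, occurred in 28 of the 280 promoters of genes at least 2-fold higher in WT Treg, 11 of the 171 of genes at least 2-fold lower (6.43%) and 6.98% of those tested. It thus lies in many promoters of tested genes outside both sets, and a match is a description of letters, not a binding site.

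Receptors of the TNF family and their ligands were mostly higher. Of 23 tested, 13 were higher and 1 lower in WT Treg, with a median of 0.48 against -0.06 over all genes. Tnfrsf4 (OX40), a costimulatory receptor, read 13.16 and 13.15 in WT Treg, against 10.08 and 9.87 in WT Tconv (difference 3.18, SE 0.14, adjusted p = 2.75e-05). Tnfrsf18 (GITR), its neighbour among tested genes on chromosome 4, read 12.17 and 12.18 in WT Treg, against 9.64 and 9.90 in WT Tconv (difference 2.41, SE 0.18, adjusted p = 0.000163). Tnfrsf9 (4-1BB), induced by antigen receptor signals, read 9.57 and 9.66 in WT Treg, against 6.49 and 6.80 in WT Tconv (difference 2.97, SE 0.18, adjusted p = 6.66e-05). The ligand genes Tnfsf11 (RANKL), Tnfsf13b (BAFF) and Lta (lymphotoxin alpha) were higher by 1.21, 1.44 and 1.49. With median centring in place of quantile normalization, 9 of the 23 were called higher and 1 lower.

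The CD28 family, its ligands and inhibitory receptors were higher for 12 and lower for 2 of 27 (median 0.55). Ctla4 read 13.14 and 13.31 in WT Treg, against 10.16 and 9.88 in WT Tconv (difference 3.21, SE 0.15, adjusted p = 2.75e-05). The ligand of Ctla4 and CD28 encoded by Cd86 is best known from antigen-presenting cells, and it read 10.37 and 10.85 in WT Treg, against 7.53 and 7.67 in WT Tconv in these sorts (difference 3.01, SE 0.22, adjusted p = 0.00014). Cd80, its relative, was below detection in WT Tconv and at least 1.61-fold higher (adjusted p = 0.000163). Pdcd1lg2 (PD-L2), a ligand of PD-1, read 7.82 and 7.73 in WT Treg, against 5.86 and 6.43 in WT Tconv (difference 1.63, SE 0.19, adjusted p = 0.00101). Sh2d1a (SAP), the adaptor of SLAM receptors, was higher by 1.09 (SE 0.12, adjusted p = 0.000691). Icos and Lag3, a costimulatory and an inhibitory receptor of effector Treg, differed by 0.35 (adjusted p = 0.112) and 1.68 (adjusted p = 0.109) and were not called. Alternative fits called Icos in 4 of 19 and Lag3 in 5 of 19, at adjusted p-values down to 0.0211 and 0.00424. The Lag3 difference was 2.75 without WT Tconv 1 and 0.61 without WT Tconv 2. Nt5e (CD73), the ectoenzyme that makes adenosine, read 12.47 and 12.37 in WT Treg, against 10.40 and 10.53 in WT Tconv (difference 1.96, SE 0.11, adjusted p = 5.56e-05).

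Nrp1 (neuropilin-1) read 12.95 and 12.93 in WT Treg, against 9.98 and 9.73 in WT Tconv (difference 3.09, SE 0.25, adjusted p = 0.000191). The receptor gene Gpr83 differed by 2.97, SE 0.33, adjusted p = 0.000849. Izumo1r (folate receptor 4), next to Gpr83 among tested genes on chromosome 9, read 10.51 and 10.67 in WT Treg, against 8.19 and 8.08 in WT Tconv (difference 2.46, SE 0.26, adjusted p = 0.000655). Together, 34 of 38 tested Treg signature genes were called higher and none lower, 31 of them at least 2-fold, with a median of 2.43. That list was drawn up with earlier results of these arrays known, so its count is a description. Ebi3, a subunit of IL-27 and IL-35, read 9.35 and 9.72 in WT Treg, against 6.06 and 6.53 in WT Tconv (difference 3.24, SE 0.19, adjusted p = 5.69e-05). The growth factor gene Csf1, the chemokine receptor gene Ccr8 and the phosphatase gene Dusp4 were below detection on both Tconv arrays. Csf1 was at least 4.31-fold higher, Ccr8 at least 2.06-fold and Dusp4 at least 2.32-fold (limma adjusted p = 0.000126, 5.69e-05 and 0.00223).

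Genes of naive T cells were lower as a group. Of 27 tested naive and quiescence genes, 21 were lower and none higher at this threshold, 15 of them at least 2-fold, with a median of -1.12. With median centring 22 were lower and none higher. Dapl1, a gene of resting naive T cells, read 7.10 and 7.07 in WT Treg, against 10.54 and 10.60 in WT Tconv (difference -3.49, SE 0.17, adjusted p = 2.75e-05). Igfbp4, an IGF-binding protein, read 10.44 and 9.75 in WT Treg, against 13.12 and 12.98 in WT Tconv (difference -2.95, SE 0.40, adjusted p = 0.00197). Ccr7, the receptor that brings naive T cells into lymph nodes, lies next to Igfbp4 among tested genes on chromosome 11. It read 10.66 and 10.38 in WT Treg, against 12.15 and 11.83 in WT Tconv (difference -1.47, SE 0.24, adjusted p = 0.00445). Atp1b1, a sodium pump subunit, read 8.03 and 7.37 in WT Treg, against 10.69 and 10.24 in WT Tconv (difference -2.76, SE 0.28, adjusted p = 0.000616), and Tdrp 7.24 and 6.93 in WT Treg, against 11.04 and 11.05 in WT Tconv (difference -3.96, SE 0.22, adjusted p = 5.09e-05). Each was lower on both Treg arrays than on either Tconv array. Foxo1, the factor that sustains Klf2, Ccr7 and Il7r, differed by -0.43 (adjusted p = 0.0627) and was not called, while 5 of 19 alternative fits called it lower (adjusted p down to 0.0126).

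Beyond that list, the kinase gene Sgk1 read 8.77 and 9.34 in WT Treg, against 11.95 and 11.79 in WT Tconv (difference -2.82, SE 0.19, adjusted p = 9.97e-05). Ampd1, the AMP deaminase named for muscle, read 6.16 and 6.03 in WT Treg, against 9.36 and 9.22 in WT Tconv (difference -3.20, SE 0.54, adjusted p = 0.00505), and the cytochrome gene Cyp2s1 6.00 and 6.13 in WT Treg, against 9.04 and 9.14 in WT Tconv (difference -3.03, SE 0.34, adjusted p = 0.000902). App, the amyloid precursor protein gene, read 5.66 and 5.82 in WT Treg, against 8.52 and 8.71 in WT Tconv (difference -2.87, SE 0.12, adjusted p = 2.75e-05). Lypd6b, Lrrc75b and Nme4 were below detection on both Treg arrays and were at least 11.9-fold, at least 7.64-fold and at least 6.35-fold lower (adjusted p = 1.61e-05, 0.000206 and 5.09e-05). Lypd6b read 5.05 and 5.14 in WT Treg, against 9.27 and 9.06 in WT Tconv, so its arrays lay close together within each group.

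Among 20 tested chemokine receptors and homing receptors, 10 were higher and 3 lower in WT Treg (median 0.63). Cxcr5, the receptor that draws cells toward B cell follicles, read 11.47 and 11.38 in WT Treg, against 9.55 and 9.24 in WT Tconv (difference 2.03, SE 0.14, adjusted p = 0.000119). Cxcr4, the receptor for CXCL12, differed by 1.08, SE 0.12, adjusted p = 0.000889. P2ry10 and Gpr174, lysophospholipid receptor genes next to each other among tested genes on the X chromosome, were higher by 1.50 (SE 0.15, adjusted p = 0.0005) and 1.12 (SE 0.14, adjusted p = 0.00162). Ccr7 and Cxcr6 were the 2 lower receptors past 2-fold. Among 9 tested integrin chains, 1 was higher (Itgae) and 1 lower, a called share of 22.2%, close to the 24.0% of all genes. The lower one, Itga7, was below detection in WT Treg and at least 1.99-fold lower, at an adjusted p of 0.0088, which became 0.0599 without WT Treg 2.

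The 38 tested genes of T cell receptor signalling were split, with 7 higher and 7 lower (median 0.09), and 2 and 5 with median centring. Themis, which sets signal strength in thymocytes, was lowest, at 7.34 and 7.11 in WT Treg, against 9.21 and 9.68 in WT Tconv (difference -2.22, SE 0.16, adjusted p = 0.00014). Trat1, an adaptor that stabilises the receptor, differed by -0.75, SE 0.13, adjusted p = 0.00505 on its brightest probe, while its other probe gave -0.08 (adjusted p = 0.735). Genes that receptor signals switch on were higher more often than lower, 13 against 6 of 38 (median 0.24). Egr2, a factor of anergy and receptor stimulation, read 11.19 and 10.74 in WT Treg, against 9.39 and 8.95 in WT Tconv (difference 1.79, SE 0.22, adjusted p = 0.00121). Rgs1 and Rgs16, which dampen chemokine receptor signals, differed by 2.60, SE 0.31, adjusted p = 0.00119 and 3.02, SE 0.39, adjusted p = 0.00162. Rgs16 read 9.82 and 9.46 in WT Treg, against 7.28 and 5.95 in WT Tconv, and without WT Tconv 1 the difference was 3.69 and without WT Tconv 2 2.36. Dusp10, a phosphatase of stress kinases, was lower, at 6.54 and 6.06 in WT Treg, against 8.17 and 7.89 in WT Tconv (difference -1.73, SE 0.17, adjusted p = 0.000479).

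NF-kB subunits, regulators and TRAF adaptors were higher for 11 and lower for 2 of 29 (median 0.23), and for 6 and 0 with median centring. Of the 13 called genes, 1 reached 2-fold. Nfkbia, the inhibitor that NF-kB itself induces, read 11.58 and 11.48 in WT Treg, against 10.67 and 10.46 in WT Tconv (difference 0.97, SE 0.12, adjusted p = 0.00114). Traf1, an adaptor of TNF receptors, was higher by 1.00 (SE 0.12, adjusted p = 0.000984) and the feedback enzyme Tnfaip3 (A20) by 0.91 (SE 0.14, adjusted p = 0.00375). Map3k14, the gene for NIK, was 1 of the 2 lower genes, at 9.61 and 9.63 in WT Treg, against 10.20 and 10.03 in WT Tconv (difference -0.50, SE 0.11, adjusted p = 0.0134). That call was lost without WT Treg 1 (adjusted p = 0.0745), WT Treg 2 (0.0678) or WT Tconv 1 (0.0777), and with median centring (0.0546).

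The 26 tested genes of the BCL2 family and cell death were higher for 10 and lower for 3 (median 0.32), and for 6 and 2 with median centring. Casp4 and Casp1, genes for inflammatory caspases, are adjacent among tested genes on chromosome 9. They read 10.87 and 11.18 in WT Treg, against 9.54 and 9.37 in WT Tconv (difference 1.57, SE 0.13, adjusted p = 0.000213) and 12.42 and 12.76 in WT Treg, against 11.41 and 11.58 in WT Tconv (difference 1.09, SE 0.14, adjusted p = 0.00161). The inflammasome receptor genes Naip5 and Naip2 lie side by side among tested genes on chromosome 13. Naip5 read 9.46 and 10.21 in WT Treg, against 6.16 and 6.28 in WT Tconv (difference 3.62, SE 0.25, adjusted p = 0.000114), and Naip2 8.66 and 8.89 in WT Treg, against 7.36 and 7.37 in WT Tconv (difference 1.41, SE 0.13, adjusted p = 0.000331). The cytokine gene Il18, whose product caspase-1 processes, was detected on 1 of 2 Tconv arrays and read 6.86 and 6.95 in WT Treg, against 5.71 and 5.60 in WT Tconv (difference 1.25, SE 0.11, adjusted p = 0.000242). These 5 genes of inflammasome sensing and output were higher on both Treg arrays, and they were set side by side after their values were seen. The Naip genes are close paralogs, so a probe may read more than its own gene.

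Several genes known from NK cells, innate-like T cells and memory T cells were lower in WT Treg, and these also differed between the WT Tconv arrays. Cxcr6, a homing receptor of memory and NKT cells, read 6.84 and 7.04 in WT Treg, against 10.70 and 11.98 in WT Tconv (difference -4.40, SE 0.39, adjusted p = 0.000281). The NK receptor gene Klrd1 (CD94) read 5.61 and 5.82 in WT Treg, against 9.60 and 10.76 in WT Tconv, was detected on 1 of 2 Treg arrays and differed by -4.46, SE 0.39, adjusted p = 0.000281. Klrb1c (NK1.1) read 5.23 and 5.45 in WT Treg, against 7.75 and 8.66 in WT Tconv and was at least 6.11-fold lower (adjusted p = 0.000479). Of 9 tested killer lectin-like and NK receptors, 5 were lower and 1 higher, with a median of -1.50, or -0.96 with genes below detection at their bounds. The chemokine gene Xcl1 read 6.35 and 6.14 in WT Treg, against 8.57 and 9.91 in WT Tconv (difference -2.99, SE 0.37, adjusted p = 0.00145), and Il4, the cytokine of type 2 help, 5.42 and 5.65 in WT Treg, against 8.09 and 9.45 in WT Tconv (difference -3.24, SE 0.38, adjusted p = 0.00104), detected on 1 of 2 Treg arrays. In each, WT Tconv 2 was above WT Tconv 1 and both were above the Treg arrays.

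Those genes belong to a wider gap between the Tconv arrays. In all, 78 genes were over 2-fold apart between the WT Tconv arrays, 51 of them higher on WT Tconv 2, against 18 genes between the WT Treg arrays. Of the 49 genes at least 4-fold lower in WT Treg, 10 were over 2-fold apart on the Tconv arrays, and 8 of these were higher on WT Tconv 2. They were Aqp9, Cxcr6, Ffar2, Gcnt2, Il4, Klrd1, Tmem176b and Xcl1. Without WT Tconv 1 the differences of Cxcr6, Xcl1, Il4 and Aqp9 were -5.04, -3.66, -3.92 and -5.11, and without WT Tconv 2 they were -3.76, -2.32, -2.56 and -3.90. The fitted difference of Ffar2 was -2.71 without WT Tconv 1 and -1.48 without WT Tconv 2. The call of Ffar2 was lost without WT Treg 1 (adjusted p = 0.0658), WT Treg 2 (0.0718) or WT Tconv 2 (0.0531). The sum over 4 NK cell markers was 75.5 to 94.0 in WT Treg and 896 on WT Tconv 1 and 2655 on WT Tconv 2. Of these markers 0 to 1 were detected in WT Treg and 2 to 3 in WT Tconv, and Ncr1, which defines NK cells among them, was undetected on all 4 arrays. The part of NK or innate-like cells in the result was not tested.

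**Figure D3:**
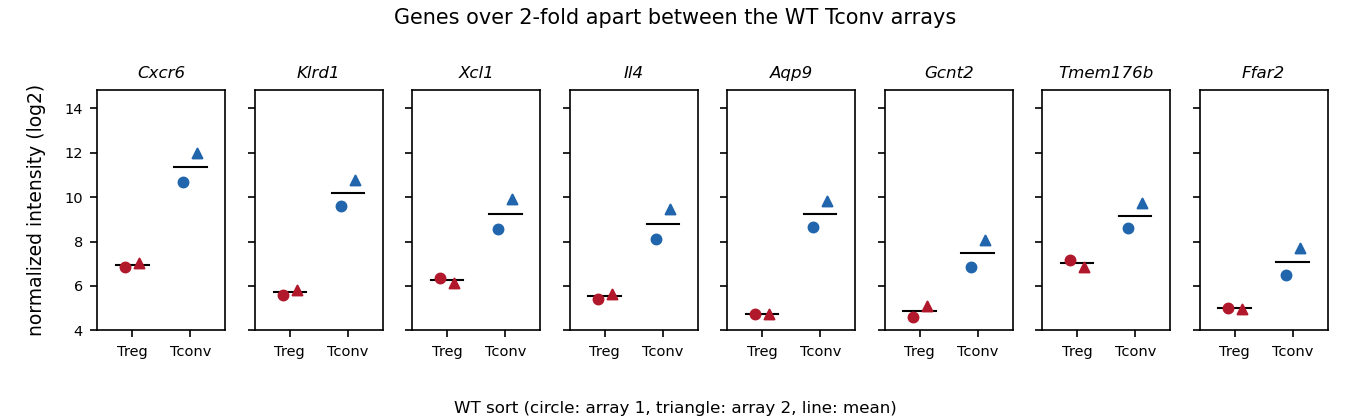
Normalized log2 intensity on each WT array of the 8 genes that were over 2-fold higher on WT Tconv 2 than on WT Tconv 1 among those lower by 4-fold or more in WT Treg. Red marks WT Treg, blue WT Tconv, circles array 1, triangles array 2 and lines group means. In every panel both Tconv points lie above both Treg points, and the triangle lies above the circle.

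Cytokine genes were split, with 7 higher and 4 lower of 15 tested (median 0.14). Il10, a suppressive cytokine, read 7.61 and 6.91 in WT Treg, against 5.76 and 4.86 in WT Tconv and was detected on 1 of 2 Tconv arrays (difference 1.94, SE 0.33, adjusted p = 0.00536). Il21, the helper cytokine of follicles, read 4.63 and 4.44 in WT Treg, against 8.65 and 5.75 in WT Tconv, below detection in WT Treg and at least 3.04-fold lower (adjusted p = 0.0395). Its level rested on WT Tconv 1, since the difference was -1.22 without that array, and the call was lost without WT Treg 1 (adjusted p = 0.126), WT Treg 2 (0.152) or either NIKtg Tconv array (0.0698 each), with a trended, robust variance (0.0991), with no filter on dim probes (0.0717) and in a fit to the WT arrays alone (0.0815). Among 16 tested genes of cytotoxic granules and T cell chemokines, 5 were higher and 4 lower (median 0.17). Cst7, the cystatin that tempers granule proteases, was higher, at 10.57 and 10.45 in WT Treg, against 8.25 and 8.27 in WT Tconv (difference 2.25, SE 0.21, adjusted p = 0.000345). Cxcl10, an interferon-induced chemokine, was below detection in WT Tconv and at least 3.37-fold higher (adjusted p = 0.00033). Klrg1, the inhibitory receptor of terminal effector cells and effector Treg, read 9.28 and 10.07 in WT Treg, against 5.83 and 7.96 in WT Tconv (difference 2.78, SE 0.69, adjusted p = 0.0247). Its call was lost without WT Treg 1 (adjusted p = 0.0631), WT Treg 2 (0.132) or WT Tconv 1 (0.097), and with a trended, robust variance (0.0953). The difference was 1.71 without WT Tconv 1 and 3.84 without WT Tconv 2.

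Genes that interferons induce were higher for 13 and lower for 4 of 42 (median 0.14), and for 9 and 5 with median centring. The increases were led by guanylate-binding proteins, GTPases that act against microbes in the cytosol. Gbp2b (GBP1) read 9.62 and 9.97 in WT Treg, against 5.25 and 5.22 in WT Tconv, below detection in WT Tconv and at least 17.8-fold higher (adjusted p = 1.92e-05). Gbp3 read 12.57 and 12.63 in WT Treg, against 9.91 and 10.16 in WT Tconv (difference 2.56, SE 0.13, adjusted p = 3.98e-05). Gbp5 and Gbp7 were higher by 1.13 (SE 0.14, adjusted p = 0.00161) and 1.09 (SE 0.11, adjusted p = 0.000511). All 4 lie next to each other among tested genes on chromosome 3, and as close relatives they may share probe signal. Members of the oligoadenylate synthetase family went both ways. Oas1g was higher by 1.47 (SE 0.19, adjusted p = 0.00163), whereas Oas2 read 5.66 and 4.97 in WT Treg, against 7.95 and 7.29 in WT Tconv, was detected on 1 of 2 Treg arrays and differed by -2.31, SE 0.29, adjusted p = 0.00147. Irf7 and Mx2, which type I interferon induces, differed by -0.74 (adjusted p = 0.0654) and -0.42 (adjusted p = 0.167) and were not called. Irf7 was called lower in 10 of 19 alternative fits, at adjusted p-values down to 0.00904.

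The promoters of Gbp2b and Gbp3 are shown because these neighbours had the largest changes among the called Gbp genes and both windows hold the interferon-stimulated response word, GAAA, any 2 bases and GAAA again. They are chr3:142594597-142594896 and chr3:142559794-142560093, the first of 2 RefSeq windows for Gbp3, both on the plus strand of GRCm38.p6. The capitals mark the word on the opposite strand. It begins at position -137 from the start in Gbp2b, and in Gbp3 a pair of overlapping words begins at -45 and -39.
Gbp2b: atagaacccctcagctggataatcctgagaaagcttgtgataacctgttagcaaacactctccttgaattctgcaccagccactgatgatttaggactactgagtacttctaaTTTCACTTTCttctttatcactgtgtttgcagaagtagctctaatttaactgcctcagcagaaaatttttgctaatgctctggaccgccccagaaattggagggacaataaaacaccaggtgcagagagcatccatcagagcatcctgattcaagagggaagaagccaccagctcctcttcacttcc
Gbp3: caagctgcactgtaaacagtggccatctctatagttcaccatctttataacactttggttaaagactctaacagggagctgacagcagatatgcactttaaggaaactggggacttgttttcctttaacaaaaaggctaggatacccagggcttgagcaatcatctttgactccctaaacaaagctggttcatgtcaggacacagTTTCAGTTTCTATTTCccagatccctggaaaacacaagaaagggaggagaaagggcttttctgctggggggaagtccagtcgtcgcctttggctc
The word occurred in 5.0% of promoters of genes at least 2-fold higher in WT Treg, 2.92% of those at least 2-fold lower and 3.19% of those tested. The other words searched on both strands were TGANTCA (AP-1), CTTTGAA (TCF/LEF), TGTGGTT (RUNX) and CCGGAAG (ETS). In the same order of gene sets, they occurred in 7.14%, 5.26% and 4.67% of promoters for AP-1, in 5.0%, 6.43% and 3.76% for TCF/LEF, in 4.64%, 5.26% and 3.88% for RUNX and in 7.14%, 4.68% and 20.3% for ETS. None of their matches overlaps a word in capitals here. The ETS word was rarer in both sets of genes that differed than among all genes tested.

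With genes ordered along the chromosomes, 97 of the 568 stood in 46 runs of adjacent tested genes called in 1 direction at that size. Over all genes tested, 4.49% were higher and 2.67% lower at that size. How many runs another order of genes would hold was not tested. The 46 runs held the Gbp, Naip and Tnfrsf4 genes above. They also held both subunits of soluble guanylate cyclase, the nitric oxide receptor. Gucy1a1 read 9.71 and 9.31 in WT Treg, against 6.66 and 6.40 in WT Tconv (difference 2.98, SE 0.19, adjusted p = 8.54e-05), and Gucy1b1, below detection in WT Tconv, was at least 1.19-fold higher (adjusted p = 0.000655). On chromosome 6, Tmem176b, Tmem176a and Gpnmb were lower together. Tmem176a read 6.09 and 6.17 in WT Treg, against 7.51 and 8.51 in WT Tconv (difference -1.88, SE 0.28, adjusted p = 0.0028) and Tmem176b 7.18 and 6.87 in WT Treg, against 8.60 and 9.72 in WT Tconv (difference -2.14, SE 0.33, adjusted p = 0.00375). Gpnmb differed by -1.42, SE 0.35, adjusted p = 0.0249 and lost its call without WT Treg 1 (adjusted p = 0.122), WT Treg 2 (0.0783) or WT Tconv 2 (0.0855).

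Tmem176a and Tmem176b, related membrane proteins of myeloid cells and RORgt-positive lymphocytes, start close together on opposite strands. The Tmem176a window is shown because the genes moved together, chr6:48841233-48841532 on the plus strand of GRCm38.p6 in RefSeq, the first of its 2 windows. The capitals mark the 155 bases it shares with the window of Tmem176b.
Tmem176a: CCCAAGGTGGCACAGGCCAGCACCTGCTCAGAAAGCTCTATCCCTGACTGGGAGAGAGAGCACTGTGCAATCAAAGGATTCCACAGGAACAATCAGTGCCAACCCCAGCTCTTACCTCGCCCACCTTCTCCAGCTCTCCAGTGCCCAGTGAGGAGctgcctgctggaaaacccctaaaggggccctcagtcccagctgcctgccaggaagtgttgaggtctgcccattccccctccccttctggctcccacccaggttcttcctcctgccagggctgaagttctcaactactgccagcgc
Among 263 pairs of tested genes with such overlapping, divergent windows, both were called in 8 pairs, in the same direction in 7. In 59 pairs 1 gene was called, and in 196 neither. Over all genes tested 24.0% were called. Whether such pairs move together more often than other genes was not tested.

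MHC class II genes, the hallmark of antigen-presenting cells, were higher for 5 and lower for none of 9 at this threshold (median 0.79). H2-Oa, a regulator of peptide loading, read 8.47 and 8.67 in WT Treg, against 6.61 and 6.81 in WT Tconv (difference 1.86, SE 0.13, adjusted p = 0.000114), the invariant chain gene Cd74 10.75 and 10.55 in WT Treg, against 8.92 and 8.49 in WT Tconv (difference 1.95, SE 0.16, adjusted p = 0.000212), and H2-Eb1 8.70 and 8.53 in WT Treg, against 7.46 and 6.96 in WT Tconv (difference 1.41, SE 0.20, adjusted p = 0.00271). Cd79b, a signalling chain of the B cell receptor, read 9.06 and 8.96 in WT Treg, against 6.21 and 6.35 in WT Tconv (difference 2.72, SE 0.11, adjusted p = 2.75e-05). Of the B cell markers, 2 passed the filter, and the other one, Cd22, was not called (0.92, adjusted p = 0.0886), though 8 of 19 alternative fits called it (adjusted p down to 0.00267). Over 7 such markers the summed linear intensity was 669 to 709 in WT Treg and 178 to 222 in WT Tconv, with 2 detected in WT Treg and 2 to 3 in WT Tconv, and most of the Treg sum was Cd79b. Cd79a, Blk, Ebf1 and Pax5 were undetected on both arrays of either group. Ms4a1 was detected on 1 WT Tconv array, and Cd79b and Cd22 were detected on both arrays of both groups. Over 8 myeloid and dendritic cell markers the sum was 693 to 733 in WT Treg and 557 to 685 in WT Tconv, with 4 detected in both. The part of such cells in the class II difference was not tested.

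Metabolic genes went in both directions, and few genes of the ribosome, oxidative phosphorylation and the proteasome were called. Of 22 tested genes of cholesterol synthesis and uptake, 9 were lower and 1 higher (median -0.24), and 4 and 0 with median centring. Hmgcs1, an early enzyme of that pathway, read 10.70 and 10.66 in WT Treg, against 11.70 and 11.58 in WT Tconv (difference -0.96, SE 0.14, adjusted p = 0.00269), and Npc2, which moves cholesterol out of lysosomes, 11.18 and 10.89 in WT Treg, against 12.21 and 12.09 in WT Tconv (difference -1.12, SE 0.13, adjusted p = 0.00105). Among 22 genes of glycolysis and the pentose phosphate route, 5 were higher and 2 lower (median 0.08). Hexokinase 2 (Hk2) was higher, at 7.86 and 8.00 in WT Treg, against 6.52 and 5.83 in WT Tconv (difference 1.75, SE 0.22, adjusted p = 0.00139), while Pdk1, which keeps pyruvate out of mitochondria, was lower, at 10.10 and 10.15 in WT Treg, against 11.43 and 11.39 in WT Tconv (difference -1.28, SE 0.19, adjusted p = 0.0028). Of 43 cell cycle genes, 5 were higher and 9 lower (median -0.05), the thymidylate synthase gene Tyms by 1.24, SE 0.18, adjusted p = 0.0028 on the brighter of its probes and 0.92 (adjusted p = 0.066) on the other. Of 57 cytosolic ribosomal protein genes 2 were higher and 1 lower, of 70 oxidative phosphorylation subunits 1 was higher and none lower at this threshold, and of 38 proteasome subunits 3 were higher and none lower. Their medians were -0.04, 0.05 and 0.01. The called shares of these last 3 lists lay below the 24.0% of all genes.

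**Figure D4:**
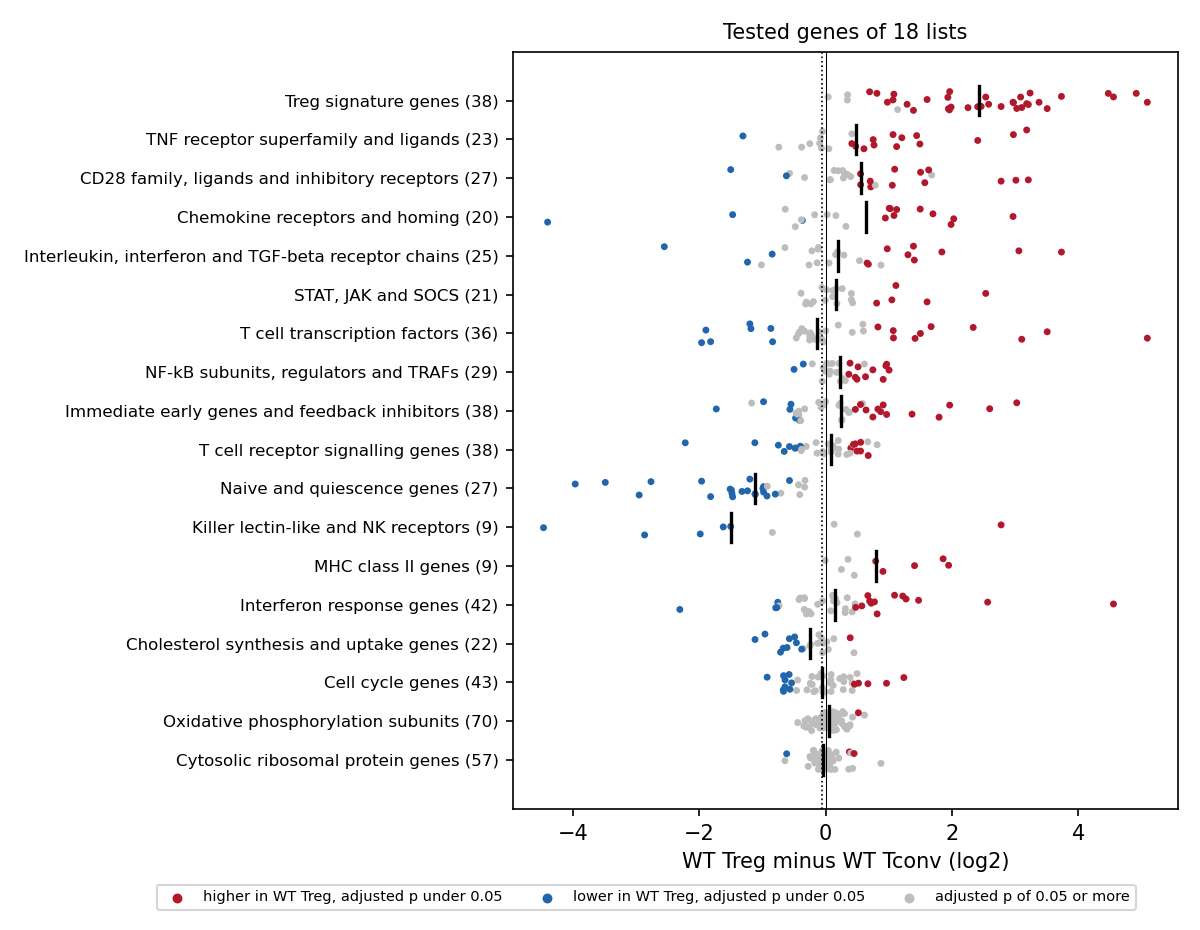
WT Treg minus WT Tconv (log2, horizontal axis) for the tested genes of 18 lists, with the number tested in brackets. Each point is a gene, red where called higher, blue where called lower and grey where not called. Black bars are list medians and the dotted line is the median of all genes, -0.06. The Treg signature (median 2.43) lies to the right and the naive genes (median -1.12) to the left, while ribosomal and oxidative phosphorylation genes lie around 0.

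The same sorts from NIKtg cells were used to ask where the WT difference was particular to WT cells. NIKtg Treg minus NIKtg Tconv was called for 3165 genes (39.9%), 23.1% of those tested higher and 16.9% lower. That balance turned with median centring, to 438 higher and 3745 lower. The count was 1908 without NIKtg Tconv 1, 2089 without NIKtg Treg 1 and 2103 without NIKtg Tconv 2, each with more genes higher than lower. The WT minus NIKtg difference of these differences was called for 3106 (39.2%), 16.1% positive and 23.0% negative, so that 41.2% of the calls were positive. With median centring 2521 were called and 85.2% of them positive, since that scaling moved the median of all differences by 0.53. The sign of a small difference between WT and NIKtg cells depends on that shift. Of the 356 genes at least 2-fold higher in WT Treg, 232 were also positive in NIKtg cells, and 249 were called for the difference. Their median was 1.52 in WT and 0.63 in NIKtg cells. Of the 212 genes at least 2-fold lower in WT Treg, 103 were also negative in NIKtg cells and 168 were called for the difference, with medians of -1.42 and 0.02.

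Some Treg genes held or exceeded their WT difference in NIKtg cells. Foxp3 differed by 5.09 in WT and 6.73 in NIKtg cells (WT minus NIKtg -1.64, adjusted p = 0.0276). Foxp3 read 13.19 and 13.36 in NIKtg Treg, against 13.48 and 13.57 in WT Treg. In NIKtg Tconv it read 6.07 and 7.01, against 8.05 and 8.82 in WT Tconv. Il2ra differed by 3.73 and 5.39 (WT minus NIKtg -1.66, adjusted p = 0.0347). Il2ra read 10.83 and 10.97 in NIKtg Treg, against 10.93 and 11.32 in WT Treg. In NIKtg Tconv it read 5.29 and 5.73, against 6.80 and 7.99 in WT Tconv. The lowest detected signals on the NIKtg Tconv arrays were 5.52 and 5.56, so 5.39 is a fitted value near the floor. The larger NIKtg differences of both genes thus went with lower Tconv values. Ikzf4 and Ikzf2 differed by 3.51 and 3.10 in WT and by 3.46 and 3.18 in NIKtg cells, and the difference was not called (adjusted p = 0.899 and 0.835). Other genes were higher in WT Treg but not in NIKtg Treg. Batf differed by 1.50 in WT and -2.26 in NIKtg cells (WT minus NIKtg 3.76, adjusted p = 0.00022), Cxcr5 by 2.03 and -1.55 (3.58, adjusted p = 0.000182), and Il10ra by 1.84 and -2.24 (4.08, adjusted p = 0.000182). Naip5 differed by 3.62 and -0.10 (3.71, adjusted p = 0.000605). Median centring kept the sign of these 4 differences, at 4.28, 3.94, 4.58 and 4.38. That scaling moved the median of all such differences by 0.53 in the positive direction, so it could not easily turn positive values. The negative differences of Foxp3 and Il2ra lie against that shift. Over the 8 Treg markers, which include both, the median difference was -0.86 and became -0.36.

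Of the 38 Treg signature genes, 34 higher and 0 lower were called in WT Treg, against 27 higher and 3 lower in NIKtg Treg. The difference was called for 30 of the 38, 20 with a larger value in WT cells and 10 with a larger one in NIKtg cells. Over all genes tested, 39.2% were called for the difference, 16.1% positive and 23.0% negative, so the share of the 10 was near that of all genes. The NIKtg counts here stand against 23.1% higher and 16.9% lower over all genes tested. Naive genes were lower for 21 and higher for none of 27 in WT Treg, against 4 lower and 12 higher in NIKtg Treg. The difference was called for 23 of the 27, each with the lower value in WT cells, with a median of -1.64. With median centring 17 were called, at a median of -1.18. The NIKtg counts became 10 lower and 5 higher (median -0.09), against 3745 lower and 438 higher of all 7926 genes (median -0.47). With quantile normalization the NIKtg medians were 0.46 for naive genes and 0.08 for all genes. Dapl1 differed by -3.49 in WT and -1.30 in NIKtg cells (WT minus NIKtg -2.18, adjusted p = 0.000843), and Igfbp4 by -2.95 and 0.40 (-3.35, adjusted p = 0.00395). The median difference of naive genes was thus negative under both scalings. Only single genes were tested, not the list, which was chosen with earlier results known, so its counts are a description. The sign of the median within NIKtg cells changed with the scaling, while the median of naive genes lay above that of all genes under both. Genes of cytotoxic granules and T cell chemokines were called for the difference in 11 of 16. Each had the higher Treg minus Tconv value in WT cells, with a median difference of 3.07 over all 16. In WT Treg 5 were higher and 4 lower (median 0.17), against 1 higher and 12 lower in NIKtg Treg (median -2.20). The gap thus lay mostly within NIKtg cells.

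**Figure D5:**
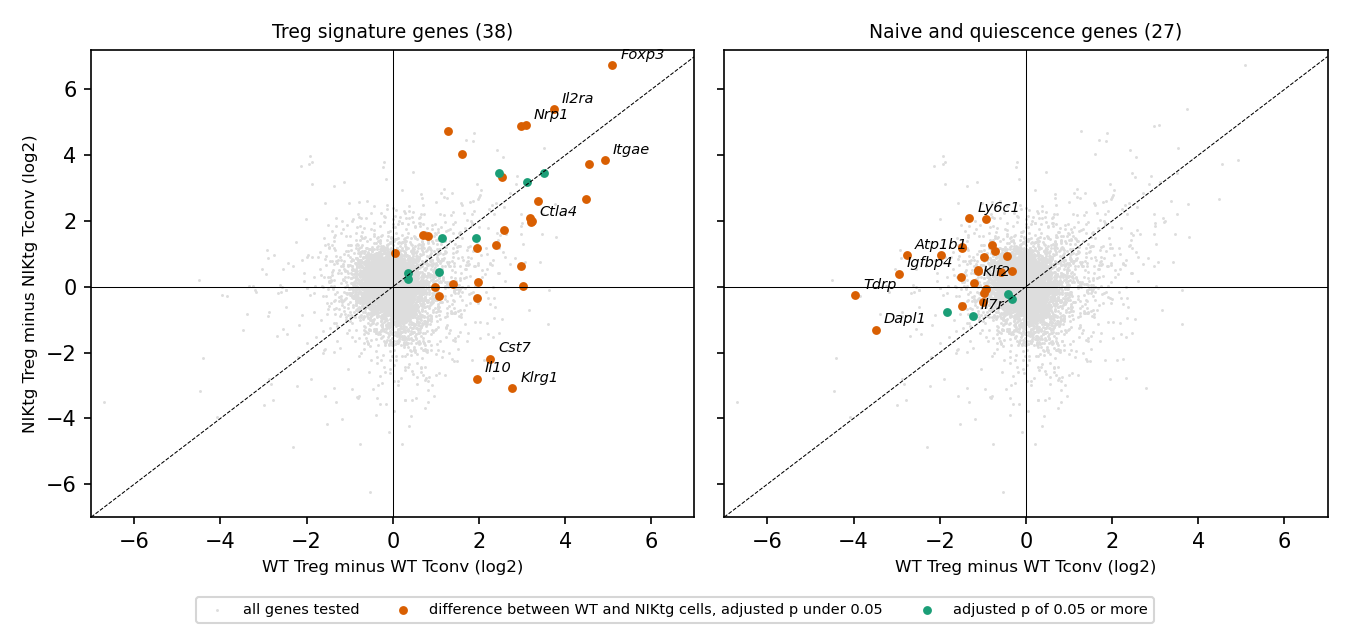
NIKtg Treg minus NIKtg Tconv (vertical axis) against WT Treg minus WT Tconv (horizontal axis), both log2, for 38 Treg signature genes (left) and 27 naive and quiescence genes (right) over all genes tested (grey). Orange points are called for the difference between WT and NIKtg cells and green points are not; the dashed line marks equal values. Foxp3 and Il2ra lie above that line and Klrg1, Il10 and Cst7 far below it, and all but 4 naive genes are orange.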

How the data were processed

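Linear probe intensities before normalization were deposited by the authors, each followed by a detection p-value per the file headers. They also deposited a table of normalized intensities, used as an alternative. GenomeStudio 2010.1 is named in the submitters' processing notes. The sources used here give no genome build for the arrays. RNA came from a column kit and biotin-labelled cRNA from a linear amplification kit, per the labels' protocols.

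The log2 values were computed here from the deposited intensities with limma 3.58.1 in R 4.3.3. Background was corrected with nec, using 798 negative controls implied by the steps of the detection p and an offset of 16, and arrays were quantile normalized. A probe was kept where 2 or more of the 8 arrays gave a detection p under 0.01, which left 11526, of which 10819 were named through the platform annotation. That annotation gave 1 symbol for 23978 probes, several for 0, and did not list 1719. Symbols checked through Entrez identifiers changed for 0 probes, and 16 had no match. The brightest probe stood for each gene, and 2087 of 7926 genes had several. Of 478 called genes with several probes, all probes passed in 1 direction for 223, and 2 genes (Rgs3 and Tmem168) had probes that passed in opposite directions.

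Group means were fitted to all 8 arrays (lmFit, eBayes, two-sided), leaving 4 residual degrees of freedom, beside 3.55 prior ones and a prior SD of 0.134. Each adjusted p is limma's. On simulated data with these groups, 92% of 100 genes changed 2-fold and 100% of 100 changed 4-fold were recovered among 7926, with 11 false calls. The simulated noise was normal, independent and sized by this same fit. The recovery therefore checks the procedure and does not measure how reliable the calls are. Same-numbered arrays were not treated as pairs. Where neither array of the dimmer group detected a gene, a bound is given, in which each dimmer array counts at its own signal or the lowest detected signal, whichever is higher. Alternatives were other background, scaling, filter, probe and variance settings and leaving out each array.

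The comparison, gene lists and named genes were chosen with earlier results of these arrays known. Named genes were Foxp3, Cd4, Thy1 and Map3k14, the 12 largest changes each way among genes detected on all 4 WT arrays, the 10 largest bounds each way, up to 6 called and 3 uncalled members per list by adjusted p and size, and the 8 largest differences each way from NIKtg cells. A subset is printed. Irf4, Batf, Nfil3, Lef1, Id2, Ccr7, Tgfbr1, Izumo1r, Dusp4, Il21, Ffar2, Gcnt2, Gbp5, Naip2, Gpr174, Gucy1a1, Gucy1b1, Gpnmb, D830030K20Rik and Tmem168 were chosen after their values were seen. Promoters are RefSeq windows of 300 bases on GRCm38.p6, present for 6550 tested genes.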

Additional observations from a re-analysis of the deposited data

Results flagged for a closer look

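A test of the difference between WT and NIKtg cells picked out 16 genes, the 8 largest positive and 8 largest negative values of WT minus NIKtg, each the Treg minus Tconv difference in WT cells less that in NIKtg cells (log2, n = 2 arrays per group, limma). The positive ones were Klrg1 (5.87), Gzmk (5.70), Tspan3 (5.09), Gzmm (4.99), Scin (4.75), Il10 (4.74), Serpina12 (4.59) and Cst7 (4.44). Granule genes are among them, since Gzmk and Gzmm encode granzymes and Cst7 a cystatin of granules. Scin encodes the actin-severing protein scinderin. In WT cells Gzmk itself was below detection on all 4 arrays and Gzmm differed by 0.21 (adjusted p = 0.641), while in NIKtg cells Gzmk differed by -6.22 and Gzmm by -4.78. For Tspan3, a tetraspanin, they were 2.33 in WT cells and -2.76 in NIKtg cells.

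The negative ones were Plac8 (-5.90), Tmem176b (-5.82), Myh7 (-5.67), Actn2 (-5.65), Tmem176a (-5.02), Aqp9 (-4.72), Tnni3 (-4.42) and Eef1a2 (-4.31). Myh7, Actn2 and Tnni3 encode a myosin heavy chain, an actinin and a troponin of striated muscle. Tmem176b differed by -2.14 in WT cells and 3.68 in NIKtg cells, and Actn2 by -1.87 and 3.79. With median centring, which moved the median of all such differences by 0.53, all 16 kept their sign and were called, with the positive values between 4.95 (Cst7) and 6.39 (Klrg1) and the negative ones between -5.42 (Myh7) and -3.97 (Eef1a2). These are fitted values, which for genes below detection in a group are not bounds.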

How the results depend on the processing

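The count of 1906 genes that differed between WT Treg and WT Tconv was 1252 with median centring, and between 994 and 2013 with 1 array left out. The count at 2-fold or more, 568, was 274 without background correction, 280 in the authors' deposited normalized table and 352 among probes detected on all 4 WT arrays, and between 512 and 619 with 1 array left out. Leaving the background in shrinks fold changes by construction, and the filter removes genes absent from 1 sort. The cause of the other changes was not tested. The count for the WT minus NIKtg difference, 3106, lay between 2005 (without NIKtg Tconv 1) and 3109 with 1 array left out, and that for NIKtg Treg minus NIKtg Tconv, 3165, between 1908 (without NIKtg Tconv 1) and 3185. With median centring 85.2% of calls were positive for the difference (41.2% with quantile normalization), 10.5% in NIKtg cells (57.8%) and 53.1% in WT cells (46.3%), where all 1906 called genes kept their sign. Tmem168, whose probes disagree, reversed to -0.10 with the mean of probes. With the replicate number as a block, which the array deviations did not bear out (r = 0.136 between WT Treg and WT Tconv), the counts were 1898, 570, 3089 and 3176. The number of arrays and, for dim genes, the signal over background limit the precision.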
